A study of Mus musculus with 45 samples.

Results

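The histone genes of the mouse genome were followed in primary cells of the embryonic cortex. They were chosen by symbol: those beginning Hist1h to Hist4h, H2a, H2b, H3f, H3c, H4f, H4c or H1f, without symbols that contain -ps, which gave 100 of the 53491 genes in the 9 tables. Of these, 59 were clustered genes, taken as replication-dependent, on chromosomes 13 (50 genes), 3 (7 genes), 11 (1 gene) and 6 (1 gene). They encode 4 H1, 15 H2A, 16 H2B, 11 H3 and 13 H4 histones. A further 6 were polyadenylated variants, H2az1 (older symbol H2afz), H2az2 (H2afv), H2aj (H2afj), H3f3a, H3f3b and H1f0. H2ax (H2afx) was kept apart, as were 3 germ line genes of the clusters and 31 other symbols, among them 5 pseudogenes and the antisense transcript H3f3aos. The symbols in the tables are newer than those of the GENCODE annotation used here for 66 of the 100 genes, and all 100 were matched to it by name or older name.

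The series measured RNA turnover by SLAM-seq, in which the label 4-thiouridine (4sU) is read as a T-to-C conversion after alkylation. Cortical cells of wild-type embryos of stages E11.5 (early neurogenesis), E14.5 (middle) and E16.5 (late) were cultured with 100 uM 4sU for 20 h and then with 5 mM uridine, and were collected 0, 2, 4, 8 and 12 h into this chase. Every group therefore shares the culture and the labelling, and the 0 h libraries are of cultured, labelled cells and not of fresh tissue. Each stage had 3 replicates, lettered A, B and C. A replicate was a pool of dissociated cortices from 7 embryos at E11.5 or 2 embryos at E14.5 and E16.5. The cells of a pool were divided over 5 wells, 1 for each chase time, so libraries of the same letter within a stage share their cells. Letters shared between stages mark different embryos. This made 45 libraries in 15 groups of 3.

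Most histone mRNA is made in S phase, when new DNA is packed into nucleosomes, from the clustered genes. Their mRNAs are the only metazoan mRNAs known to end without a poly(A) tail: they end in a short stem-loop, which is bound by the protein Slbp (stem-loop binding protein), and they are destroyed when DNA synthesis stops. Variant histones such as H3.3 (from H3f3a and H3f3b), H2A.Z (from H2az1 and H2az2) and the linker histone H1.0 (from H1f0) come from genes outside the clusters with ordinary poly(A) tails, and they are also made in cells that do not divide. H2ax, whose protein marks DNA breaks, is known to make mRNA of both kinds. Some clustered genes are also known to make a polyadenylated mRNA, mostly in cells that leave the cell cycle.

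The libraries were made from poly(A) RNA. The stem-loop, the known end of the mRNA without a tail, is given here for the genes on which the results turn. The stem-loop was searched as a fixed pattern of histone genes, 16 bases in all, within 300 bases after each annotated stop codon. The pattern was a stem arm of 6 bases (GG, 3 pyrimidines, T), a loop of 4 (T, pyrimidine, T, any base) and a second arm (A, 3 purines, CC). Pairing of the arms was not required, and hairpins of other sequence were not searched. The pattern was found in 57 of the 59 clustered genes, 21 to 58 bases after the stop (median 30.0), in H2ax and in all 3 germ line genes. It was also in 1 of the 25 other members with a stop codon (H2bfm) and in 0 of the 6 variants. Of 21658 other protein-coding genes, 10 (0.0462%) held such a match. The 3 commonest forms, those of H2bu2, H4c8 and H2bc12, were shared by 35, 8 and 7 clustered genes. In the sequences, given 5′ to 3′ on the strand of the gene, the capitals mark the arms of the stem, and positions are on mm10 (GRCm38).
H2bu2, chr11:58949349-58949364, plus strand, 28 bases after the stop: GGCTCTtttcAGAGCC
H1f2, chr13:23739512-23739527, plus strand, 24 bases after the stop: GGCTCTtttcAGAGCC
H2bc4, chr13:23684647-23684662, plus strand, 34 bases after the stop: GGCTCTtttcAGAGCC
H4c9, chr13:22040966-22040981, minus strand, 30 bases after the stop: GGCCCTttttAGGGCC
H1f5, chr13:21779837-21779852, minus strand, 30 bases after the stop: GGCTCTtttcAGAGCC
H4c8, chr13:23531458-23531473, plus strand, 31 bases after the stop: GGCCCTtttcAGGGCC
H2bc12, chr13:22036300-22036315, plus strand, 32 bases after the stop: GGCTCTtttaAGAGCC
H2ax, chr9:44335240-44335255, plus strand, 46 bases after the stop: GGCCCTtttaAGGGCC

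The annotated transcripts of the clustered genes end at different places. Of the 59 clustered genes, 34 have a stem-loop and no annotated transcript that runs over 100 bases past it. In 21 of these the longest transcript ends at the last base of the stem-loop or up to 100 bases past it, as in H4c8 (46 bases) and H2bc12 (30 bases), in 2 it ends inside the stem-loop, and in 11, H1f5, H4c12 and H2ac15 among them, it ends before the stem-loop begins. In 23 genes an annotated transcript runs over 100 bases past it, by 169 bases in H2bu2, 330 in H4c9 and 840 in H1f2. The transcript of H2bc4 extends 8246 bases of genome beyond the stem-loop. In H2bc21 (older symbol Hist2h2be) and Hist1h2an no stem-loop of this form was found after the stop.

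Depth was 229 to 629 x 1e6 covered Ts per library (median 473 x 1e6), which is 15.9 to 43.9 x 1e6 reads, and 3 reads corresponded to between 0.0622 and 0.169 cpm. A read covered about 14.3 Ts. Of the 100 genes, 20 had no read in any library, all among the other symbols, and 23 had a read in all 45. Many clustered genes are near copies: 29 of the 59 share over 50% of their 50-base words with other genes, and how reads with several alignments were treated is not given in the sources used here, so the values of such genes are uncertain. Neither is the use of strand in counting, so that reads of 26 members whose exons lie opposite exons of other genes, among them H1f0, H2aj, H2ax, H3f3a, H3f3aos, H2afy3, H2ac6, H2ac11, H2ac15 and Hist1h2al, cannot be told from those of the opposite strand. The labelled cortical cells were checked by their markers: summed over 7 progenitor markers, 0 h libraries had 8126 to 8620 cpm at E11.5, 2603 to 3288 at E14.5 and 1047 to 1144 at E16.5, against 2893 to 3450, 5714 to 6369 and 8131 to 8574 cpm for 8 neuronal markers. In these bulk samples fewer cells of a type and less RNA per cell cannot be told apart. Other cells differed by stage too: 8 erythroid markers summed to 1568 to 3379 cpm at E11.5 and 87.3 to 208 at the later stages, and 8 meningeal and mural markers to 472 to 709 against 22.4 to 43.2. Microglial markers stayed at 8.10 to 17.4 cpm and endothelial markers at 2.82 to 8.25 cpm at 0 h. The part of these other cells in the stage differences below was not tested.

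A group of 6 libraries stood apart. Gm42418, a transcript annotated over ribosomal RNA sequence, took 14846 to 67623 cpm in E11.5 12 h A, B and C, E14.5 2 h A and B and E14.5 8 h C, and 1485 to 9482 cpm in the other 39. In the same 6 libraries, RNAs without a poly(A) tail were high. Rn7sk (7SK RNA) lay at 43.7 to 141 cpm against 1.98 to 19.3, and Rmrp, the RNA of RNase MRP, at 18.5 to 77.9 against 0.290 to 12.1. All 3 libraries of E11.5 12 h are of this kind and no other E11.5 library is, so the 12 h time point and this property cannot be told apart at E11.5.

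The polyadenylated variants held most histone RNA in these libraries. At 0 h the 6 variants summed to 1202, 1305 and 1112 cpm in E11.5 A, B and C, to 1177, 1133 and 1112 at E14.5, and to 970, 974 and 958 at E16.5. The 59 clustered genes summed to 79.0, 82.1 and 76.8 cpm at E11.5, 83.2, 81.1 and 84.9 at E14.5, and 88.1, 77.2 and 80.0 at E16.5. In means, the variants fell from 1206 ± 96.4 to 1140 ± 32.9 and 968 ± 8.45 cpm (SD, n = 3), and all E16.5 libraries lay below all E11.5 and E14.5 libraries. The clustered sums (79.3 ± 2.69, 83.1 ± 1.93 and 81.8 ± 5.68 cpm) overlapped between E16.5 and both other stages. These sums hide opposite changes. The gene H2bu2 alone rose from a mean of 36.0 to 46.8 and 54.5 cpm, and the mean sum of the other clustered genes fell at each step (given at the end).

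Within the clustered genes, 5 carried nearly everything. H2bu2 (Hist3h2ba), H1f2 (Hist1h1c), H2bc21, H4c9 (Hist1h4i) and H2bc4 (Hist1h2bc) together held 79.4 to 94.4% (median 91.8) of the clustered cpm at 0 h. Per kb of exon, the mean over the 9 libraries at 0 h was 74.5 cpm for H2bu2, 8.42 for H4c9, 7.38 for H1f2, 2.92 for H2bc21 and 2.23 for H2bc4. These levels are set against 182 ± 13.8 for H3f3b, 176 ± 49.5 for H1f0, 141 ± 56.0 for H2ax, 44.1 ± 12.6 for H2az2, 22.8 ± 2.83 for H3f3a, 15 ± 3.50 for H2aj and 12.1 ± 5.15 for H2az1 (SD over 9 libraries of 3 stages). The order changed with stage. H2bu2 stood above H2az1, H2aj and H3f3a at each stage, and at E11.5 it lay within the spread of H2az2 (58.7 ± 1.38 against 57.6 ± 6.08 cpm per kb, SD, n = 3). H4c9 at E11.5 (17.9 ± 9.13) was near H2aj (17.8 ± 4.18), with H2az1 inside the same spread, and H1f2 at E16.5 (7.53 ± 0.996) was above H2az1 (5.86 ± 0.294), while H2bc21 and H2bc4 were below all variants at each stage. H1f0 was above H3f3b at E11.5 (230 ± 33.7 against 166 ± 3.70) and below it at E16.5 (124 ± 5.58 against 185 ± 3.62). H2aj and H2az1 lay within each other's spread at E11.5 and E14.5, and at E16.5 H2aj was higher (12.2 ± 1.48 cpm per kb). The 4 clustered genes over 1 cpm per kb that hold a stem-loop all have an annotated transcript that runs over 100 bases past it. None of the 34 genes with no such transcript exceeded 0.714 cpm per kb at 0 h (H4c12), with a median of 0.195, but 19 of the 23 extended genes were also under 1, and their median was 0.176. Next among the clustered genes came H4c12, H4c8, H1f5, H2ac15 and H4c4, at 1.11 down to 0.748 cpm per kb over all 45 libraries, the 6 that stood apart included. The 34 and the 23 genes also differ in sequence uniqueness. A median of 66.4% of 50-base words is shared in the former and 24.8% in the latter. The level per kb divides by all annotated exon bases, those past the stem-loop included (7425 in H1f3, 743 in H1f5). A long annotated end can therefore lower the value of an extended gene. The part of either difference in the levels was not tested.

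**Figure D1:**
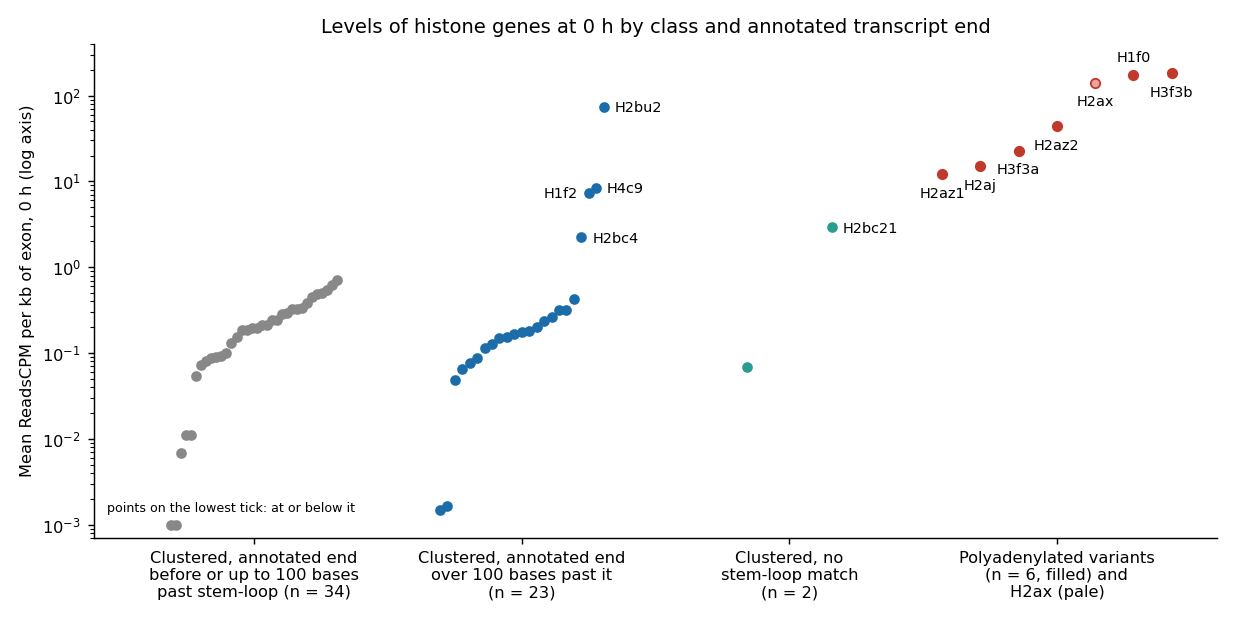
Mean cpm per kb of exon over the 9 libraries at 0 h (log axis) for each clustered gene, by where its annotated transcript ends, and for the polyadenylated variants and H2ax, 1 point per gene. No gene of the 34 whose transcripts end before the stem-loop or up to 100 bases past it reaches 1 cpm per kb, and the 5 highest clustered genes are H2bu2, H4c9 and H1f2, H2bc21 and H2bc4.

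Promoters were searched for motifs known from histone genes. Windows from 250 bases before to 50 after the start were available from RefSeq (mm10) for 53 clustered genes and the 6 variants, and motifs were searched on both strands. CCAAT, the box bound by NF-Y, was in 14 of 14 H2B genes, in 30 of 39 other clustered genes (76.9%) and in 5 of 6 variants, against 41.1% of 27025 promoters. TATAAA was in 7 of 14 H2B genes, 24 of 39 other clustered genes (61.5%) and 1 of 6 variants, against 15.7%. The octamer ATTTGCAT, the site of Oct1 in H2B promoters, was in 5 of 14 H2B genes (35.7%), 5 of 39 other clustered genes (12.8%) and 1 of 6 variants, against 1.97% of all. A match of letters is a description and not a binding site.

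The low clustered genes differed widely between libraries. The 54 clustered genes other than the 5 highest summed to 10.4, 9.86 and 15.8 cpm in E11.5 A, B and C at 0 h, to 7.22, 6.66 and 5.61 at E14.5, and to 4.91, 4.69 and 4.46 at E16.5. Replicate C of E11.5, the highest of these, is also the 0 h library with the most Gm42418 (9482 cpm). Over all 45 libraries, the 54 genes summed to 21 to 115 cpm in the 6 libraries with over 10000 cpm of Gm42418 and to 3.50 to 15.8 in the others, and the ranges did not overlap. The 5 highest clustered genes summed to 62.4 to 83.7 cpm in the former and to 55.9 to 93.7 in the latter, and the variants to 935 to 1148 and to 760 to 1305. The 54 genes thus moved with the RNAs that lack a poly(A) tail, while the sums of the 5 highest genes and of the variants in the 6 libraries lay inside the range of the rest.

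**Figure D2:**
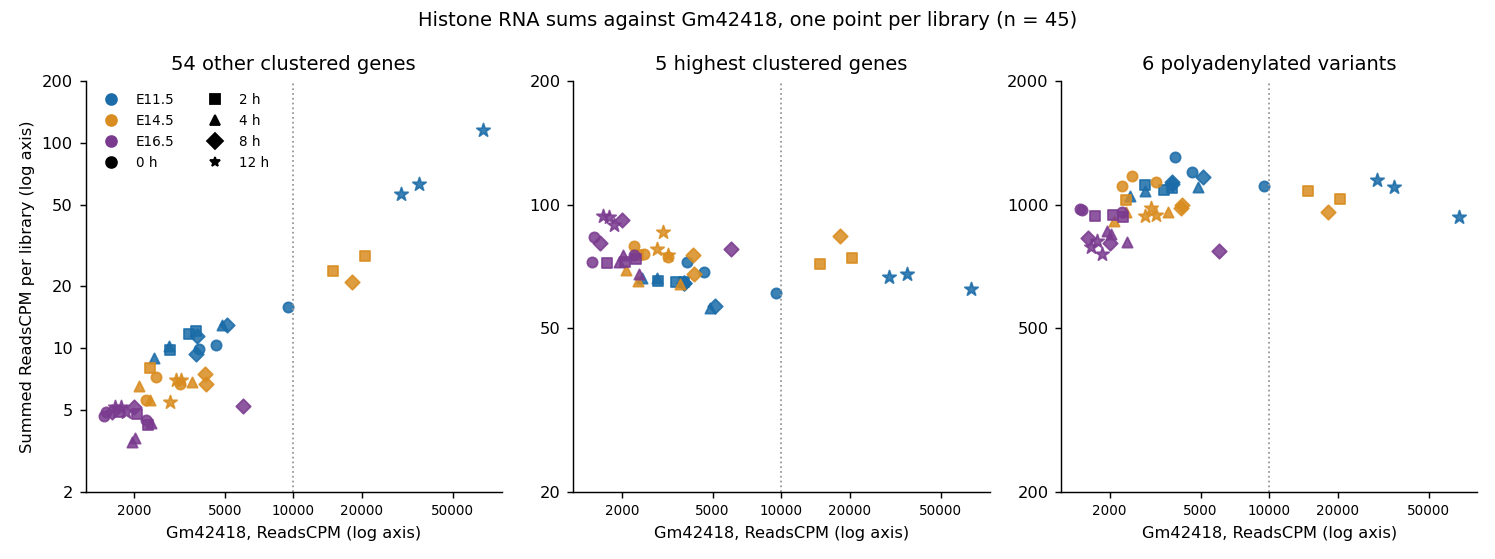
Summed cpm of 54 clustered genes, of the 5 highest clustered genes and of the 6 variants against cpm of Gm42418, 1 point per library (n = 45, log axes), with colour for stage and shape for chase time, and a dotted line at 10000 cpm. The 6 libraries to the right of the line reach 21 to 115 cpm for the 54 genes, and the other 39 stay at 3.50 to 15.8.

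Stages were compared at 0 h on counts of covered Ts with edgeR's quasi-likelihood test, with Benjamini-Hochberg adjustment over the 18408 genes that had more than 10 covered Ts in all 9 libraries. A gene was called when the adjusted p was under 0.05 and the change over 2-fold. The filter was passed by 27 of the 100 genes: 16 clustered, 6 variants, H2ax and 4 others. The 3 comparisons share libraries, so they are not independent. Against E11.5, 3 of the 27 were called at E14.5, where 16.1% of all genes were called. At E16.5 against E14.5, 5 were called against 13.1% of all genes, and at E16.5 against E11.5, 8 against 29.3%. Of the 8, 7 were lower and 1 higher, with 14.6% of all genes lower and 14.7% higher. The share of members called was therefore near that of all genes in each comparison. The median log2 change was -0.20, -0.36 and -0.57 over the 6 variants in the order given, 0.07, 0.04 and -0.24 over the 16 clustered genes, and -0.01, -0.00 and -0.04 over all genes tested.

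Among the variants, the 2 genes for H2A.Z fell most. H2az1, the lower of the 2 here, measured 28.8, 35.2 and 24.1 cpm in E11.5 A, B and C, 24.5, 21.3 and 28.0 at E14.5, and 11.0, 10.3 and 9.99 at E16.5. The E16.5 libraries all lay below the others, while E11.5 and E14.5 overlapped. In edgeR, its log2 change was -1.25 ± 0.129 (SE) from E14.5 to E16.5 (adjusted p = 5.56e-06) and -1.44 ± 0.129 from E11.5 to E16.5 (adjusted p = 5.01e-07). H2az2 measured 87.1, 105 and 89.8 cpm, then 77.6, 75.0 and 67.3, then 50.0, 47.9 and 48.0, and no 2 stages overlapped. Its changes were under 2-fold, with log2 -0.33 ± 0.0838 at the first step (edgeR, adjusted p = 0.00541) and -0.55 ± 0.084 at the second (adjusted p = 0.000138).

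H1f0, the linker histone of resting and differentiated cells, also fell. It stood at 482, 537 and 399 cpm at E11.5, 377, 373 and 321 at E14.5, and 266, 256 and 243 at E16.5, without overlap between stages. The log2 changes were -0.29 ± 0.0877 and -0.52 ± 0.0879 (edgeR, adjusted p = 0.0157 and 0.000316), and -0.81 from E11.5 to E16.5, which is under 2-fold. H2ax, at 256, 345 and 220, then 210, 225 and 149, then 128, 109 and 116 cpm, was lower at E16.5 than in every earlier library. Its log2 change from E11.5 to E16.5 was -1.15 ± 0.161 (edgeR, adjusted p = 3.24e-05), and without the highest library, E11.5 0 h B, it was -0.96 and under the 2-fold limit.

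The 2 genes for H3.3 did not follow this fall. H3f3b, the most abundant histone mRNA here, measured 499, 503 and 482 cpm at E11.5, 580, 562 and 606 at E14.5, and 543, 544 and 562 at E16.5. All later libraries lay above all E11.5 libraries, with log2 0.29 ± 0.055 at E14.5 (edgeR, adjusted p = 0.000661) and 0.20 at E16.5 (adjusted p = 0.006) against E11.5. H3f3a, at 78.3, 83.4 and 88.4, then 88.9, 70.1 and 66.9, then 75.2, 96.1 and 71.4 cpm, overlapped between all stages, with log2 -0.01 ± 0.135 from E11.5 to E16.5 (edgeR, adjusted p = 0.95). H2aj, a replacement H2A, measured 27.6, 41.4 and 28.6, then 27.8, 31.7 and 22.6, then 24.7, 19.4 and 23.0 cpm, and its log2 change over the same interval was -0.32 ± 0.159 (adjusted p = 0.098), which missed the threshold.

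The highest clustered genes moved in different directions. H2bu2, an H2B gene on chromosome 11, measured 35.0, 36.4 and 36.6 cpm at E11.5, 50.5, 43.0 and 46.8 at E14.5, and 59.6, 50.9 and 53.0 at E16.5, each stage above the one before. Its log2 change was 0.42 ± 0.0823 at the first step (edgeR, adjusted p = 0.000965), 0.27 at the second (adjusted p = 0.0152), and 0.69 in all. H1f2, a linker histone gene, measured 7.75, 8.51 and 6.73 cpm at E11.5, then 10.0, 18.0 and 17.3 at E14.5. It rose by log2 1.17 ± 0.206 (edgeR, adjusted p = 0.000406), and at E16.5 it stood at 13.5, 10.9 and 10.8 cpm, still above E11.5 in every library. At E14.5 pool A was lower than pools B and C at each chase time, over ranges of 6.16 to 15.6, 14.3 to 26.7 and 13.6 to 31.5 cpm.

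H2bc21 and H4c9 fell at different steps. H2bc21, at 7.78, 7.41 and 9.61 cpm at E11.5 and 10.6, 9.83 and 10.7 at E14.5, was down to 4.00, 4.05 and 5.07 at E16.5, with log2 -1.24 ± 0.123 at that step (edgeR, adjusted p = 3.93e-06). H4c9 fell between E11.5 (15.5, 18.0 and 5.46 cpm) and E14.5 (1.87, 1.75 and 2.39 cpm), with log2 -2.60 ± 0.330 (edgeR, adjusted p = 2.77e-05), and then stood at 3.42, 3.32 and 3.39 cpm at E16.5. All E11.5 libraries of H4c9 lay above all later ones, but the 3 pools differed, with 12.0 to 15.5 cpm in A, 12.7 to 18.0 in B and 5.07 to 5.96 in C over the 5 chase times. H2bc4, at 2.46, 2.02 and 2.50, then 3.04, 1.85 and 2.09, then 2.70, 3.32 and 3.26 cpm, was above E11.5 in all 3 E16.5 libraries, with log2 0.59 (edgeR, adjusted p = 0.023).

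**Figure D3:**
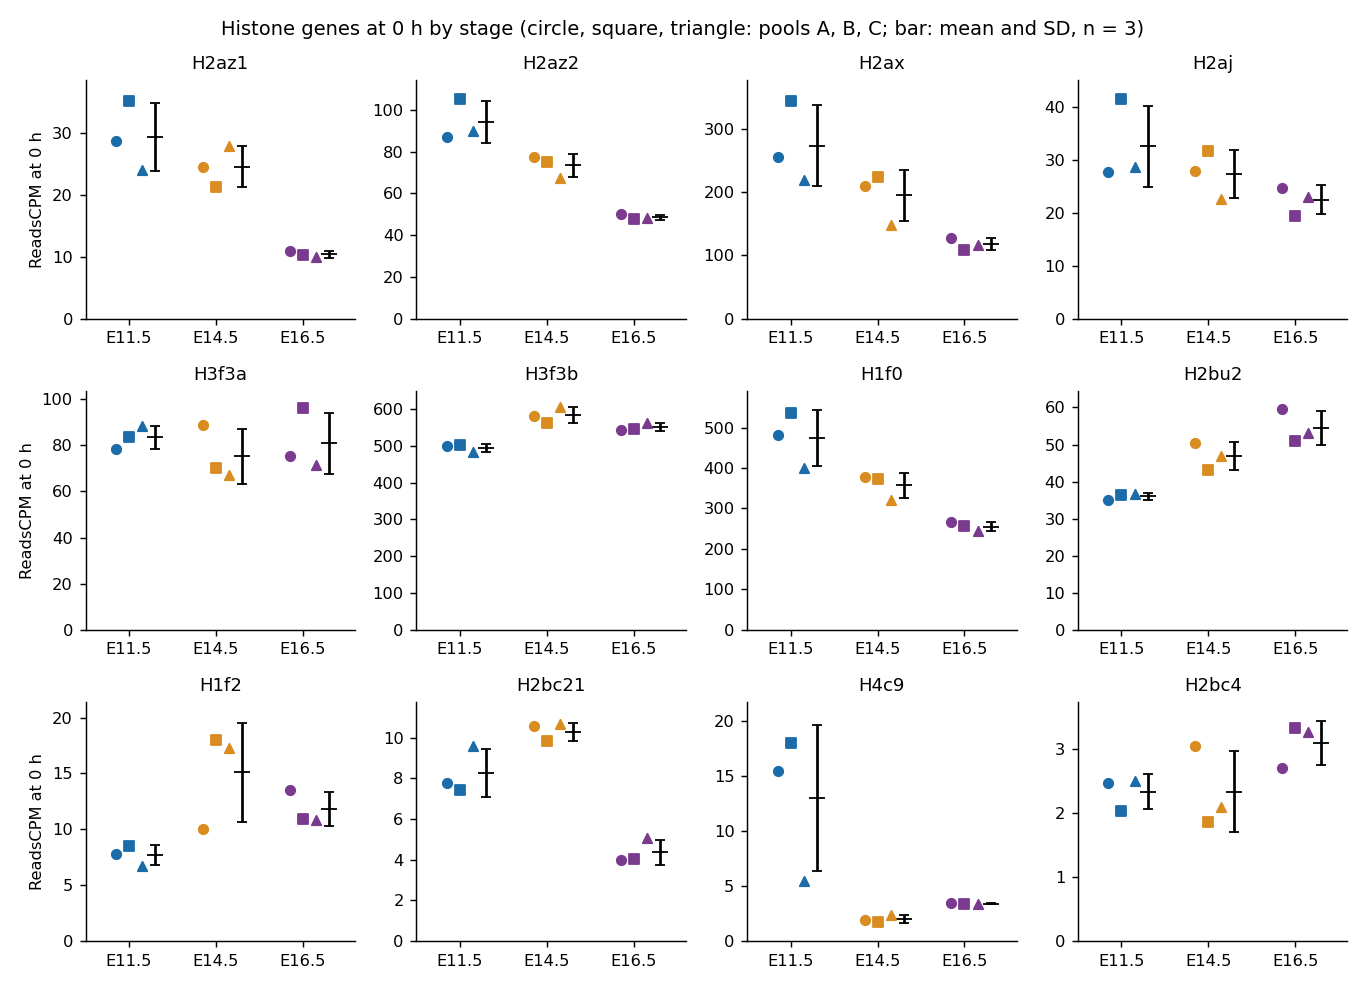
Cpm at 0 h in each pool by stage (points; circle, square and triangle for pools A, B and C), with the mean and SD of 3 replicates as bars, for the variants, H2ax and the 5 highest clustered genes, each on its own axis from 0. H2az1, H2az2, H2ax and H1f0 are lowest at E16.5, H2bu2 is highest there, and H4c9 drops after E11.5.

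Clustered genes at the floor of the assay were called on few reads. From E14.5 to E16.5, H2ac11 fell from 31 reads over the 3 libraries to 7 (log2 -1.98 ± 0.521, edgeR, adjusted p = 0.00682). At the same step H2bc12 fell from 36 to 8 reads (log2 -1.71 ± 0.588, adjusted p = 0.0286), a call that held in 2 of the 6 fits that left out a library. H4c4 measured 0.509, 0.337 and 1.19 cpm at E11.5, 0.318, 0.330 and 0.188 at E14.5 and 0.114, 0.0948 and 0.187 at E16.5. Its call at E14.5 against E11.5 (log2 -1.48 ± 0.553, adjusted p = 0.0413) held in 1 of 6 such fits and was lost with the letter as a block (adjusted p = 0.108). H1f1 and H2ac6, called in opposite directions at E16.5 against E11.5, overlapped between the stages. The only other member called was the pseudogene Hist1h2al, which rose from 0.594, 0.693 and 0.537 cpm at E14.5 to 1.90, 1.42 and 1.47 at E16.5 (log2 1.44 ± 0.389, adjusted p = 0.00792). The pseudogene H2afy3 measured 37.8, 37.8 and 39.1, then 43.5, 41.4 and 42.4, then 49.1, 51.9 and 44.4 cpm, under the 2-fold limit (log2 0.45 from E11.5 to E16.5, adjusted p = 0.000219), and lies opposite exons of Pvt1. Other RNAs without a poly(A) tail were lower at E16.5 too. Of the 4 tested, 2 were called lower at E14.5 against E11.5, 1 at E16.5 against E14.5 and 3 at E16.5 against E11.5. Their median log2 changes were -0.50, -1.06 and -2.23, against -0.01, -0.00 and -0.04 over all genes. The part of this in the falls of the low clustered genes was not tested.

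Between E11.5 and E16.5, 1 of the genes that act on histone mRNA was called, and most genes of S phase were. Of 20 tested genes for histone mRNA synthesis, end processing and decay, 0 were called at E14.5 against E11.5, 0 at E16.5 against E14.5 and 1, lower, at E16.5 against E11.5. Their medians were log2 -0.09, -0.09 and -0.25. The gene called was Slbp, which measured 72.7, 69.0 and 69.7 cpm at E11.5, 38.3, 40.2 and 39.3 at E14.5 and 29.4, 29.3 and 26.7 at E16.5, with log2 -1.21 ± 0.0716 in all (edgeR, adjusted p = 9.08e-09). Npat, the activator of clustered histone genes, had log2 -0.45 over the same interval, and Lsm11, a part of the U7 particle that cuts histone pre-mRNA, had log2 0.88. Of 24 chaperones and deposition factors, 0 rose and 6 fell between E11.5 and E16.5 (median log2 -0.52), among them Asf1b (-2.60), Mcm2 (-1.75), Chaf1a (-1.61) and Chaf1b (-1.42). For 30 genes of S phase the count was 29 lower and 0 higher (median -1.69), and for 18 genes of mitosis 18 lower and 0 higher (median -1.48). Of all 18408 genes tested, 14.6% were called lower and 14.7% higher between E11.5 and E16.5. The lists were set with earlier results known and are described by counts only.

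Over the chase, 12 h libraries were compared with 0 h libraries within each stage, in a fit of the 15 libraries of the stage. The pool was not a term of this fit, although its wells share cells. Counts of calls with the pool as a block are given at the end. At E11.5, 41 of the 100 genes passed the filter, and 24 were called higher and 1 lower, where 1.42% of 17904 genes were called higher and 2.55% lower. All 24 were clustered genes, and 23 of them were among the 25 tested of the 54 low genes (median log2 2.85). All of these rest on the 3 libraries that stood apart above. Markers moved over the same chase: at E11.5 the progenitor sum was 8126 to 8620 cpm at 0 h and 5729 to 6894 at 12 h, and the microglial sum 8.10 to 12.5 and 3.20 to 4.52. At E14.5 the erythroid sum went from 87.3 to 145 down to 24.5 to 78.3 cpm and the meningeal and mural sum from 22.4 to 24.8 up to 33.1 to 33.6, and at E16.5 the neuronal sum went from 8131 to 8574 up to 9150 to 9376. None of these ranges overlapped, and their part in the chase changes was not tested. H1f5 measured 0.548, 0.192 and 0.731 cpm at 0 h, 0.770, 0.557 and 0.822 at 8 h, and 3.52, 4.74 and 7.61 at 12 h, with log2 3.70 ± 0.448 at 12 h (edgeR, adjusted p = 3.23e-05). H4c8 went from 0.196, 0.289 and 0.423 cpm to 2.07, 2.24 and 5.16 at 12 h, with log2 3.68 ± 0.494 (adjusted p = 7.53e-05).

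The rise of the low genes was seen at 12 h and not before. At 8 h against 0 h, 0 members were called higher and 2 lower at E11.5, where 1.74% of all genes were called. At 12 h the 54 genes summed to 56.1, 63.1 and 115 cpm in A, B and C, and C was also highest in Gm42418 (67623 cpm). In the E14.5 2 h libraries A and B, which also stood apart, H1f5 measured 1.63 and 1.66 cpm against 0.117 in C, and H4c8 0.722 and 1.36 against 0.175. The 4 tested RNAs without a poly(A) tail other than histone were all called higher at E11.5 12 h (median log2 3.45) and 0 of them at the later stages. Of the genes of S phase and of mitosis, 0 of 30 and 0 of 18 were called at E11.5, with median log2 0.14 and 0.23.

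At the later stages no low clustered gene was called higher at 12 h. At E14.5, 0 of 32 tested members were called at 12 h in edgeR, where 2.28% of all genes were; 4 members had an unadjusted p under 0.05, and DESeq2 called 0 as well, with 5 under 0.05 unadjusted. The 12 h sum of the 54 genes was 6.48 ± 0.872 cpm at E14.5 against 6.50 ± 0.817 at 0 h, and 5.08 ± 0.161 at E16.5 against 4.69 ± 0.224 (SD, n = 3). By pool, the sum went from 7.22, 6.66 and 5.61 to 5.47, 6.96 and 7.00 cpm at E14.5, higher in 2 of 3, and from 4.91, 4.69 and 4.46 to 5.18, 5.16 and 4.89 cpm at E16.5, higher in 3 of 3. At E16.5, 3 of 25 tested were called, H2bc4 higher, and H3f3aos and H3f3c lower, where 3.03% of 18008 genes were called. The 2 lower calls rest on few reads: H3f3c went from 75 to 27 reads (log2 -1.08, adjusted p = 0.024) and held in 3 of 6 fits that left out a library, and H3f3aos (log2 -1.09, adjusted p = 0.0266) in 2 of 6. At E11.5, H3f3aos was the call in the lower direction, at log2 -1.64 ± 0.409 (edgeR, adjusted p = 0.00847), from 0.391, 0.289 and 0.654 cpm to 0.211, 0.0944 and 0.0917.

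Of the 5 highest clustered genes, H1f2, H2bc4 and H2bc21 moved the same way from 0 to 12 h in every pool of all 3 stages. For each of them the E11.5 12 h values come only from the 3 libraries that stood apart. At E11.5 8 h, H1f2 measured 8.93, 7.90 and 8.22 cpm in A, B and C, with B below its 0 h value. At the later stages it was above its 0 h value at 8 h in every pool. At E11.5 the 12 h time point and the property of these libraries cannot be told apart. H1f2 stood below its 0 h value at 2 and at 4 h in 9 of 9 pools, and above it at 12 h. From 0 to 12 h it went from 7.75, 8.51 and 6.73 to 14, 13.5 and 16 cpm at E11.5, from 10.0, 18.0 and 17.3 to 15.6, 26.7 and 31.5 at E14.5, and from 13.5, 10.9 and 10.8 to 22.4, 20.8 and 18.8 at E16.5. The log2 changes were 0.86 ± 0.113 (edgeR, adjusted p = 6.72e-05), 0.77 ± 0.383 (adjusted p = 0.196) and 0.83 ± 0.151 (adjusted p = 0.000815). At E14.5 the pools differed more than the times, and with the pool as a block the value was 0.75 (edgeR, adjusted p = 1.52e-05). The other p-values given for single genes over the chase come from fits without the pool.

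H2bc4 rose and H2bc21 fell, both H2B genes. H2bc4 reached 4.08, 4.88 and 5.30 cpm at E11.5, 4.65, 3.47 and 3.90 at E14.5 and 7.75, 7.47 and 6.15 at E16.5 after 12 h, above its own 0 h value in 9 of 9 pools. The log2 changes were 1.20 ± 0.175, 0.80 ± 0.247 and 1.21 ± 0.151 (edgeR, adjusted p = 0.000158, 0.0377 and 3.66e-05). H2bc21 fell to 4.92, 4.48 and 4.49, to 5.09, 5.47 and 6.51, and to 2.95, 2.69 and 2.81 cpm, below its 0 h value in 9 of 9 pools. Its log2 changes were -0.67 ± 0.138, -0.88 ± 0.122 and -0.58 ± 0.132 (edgeR, adjusted p = 0.00235, 0.000225 and 0.00425), under the 2-fold limit at each stage. At 4 h the 9 pools of each gene lay on both sides of their 0 h values, and by 8 h H2bc4 was above and H2bc21 below in 9 of 9 pools. No change of H2bu2 was detected at 12 h, with log2 0.02 ± 0.0937, -0.10 ± 0.118 and 0.09 ± 0.0674 (adjusted p = 0.893, 0.633 and 0.339).

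Of the variants, H3f3b fell over the chase at the 2 later stages. It went from 580, 562 and 606 to 430, 447 and 464 cpm at E14.5 and from 543, 544 and 562 to 419, 437 and 416 at E16.5, by log2 -0.37 ± 0.0578 and -0.33 ± 0.036 (edgeR, adjusted p = 0.000583 and 1.05e-05). At E11.5 it went from 499, 503 and 482 to 417, 401 and 379 cpm, which after TMM scaling was log2 -0.11 ± 0.0469 (adjusted p = 0.102). It was lower in cpm in 9 of 9 pools. H2az2 fell at E16.5, with log2 -0.34 ± 0.0702 (edgeR, adjusted p = 0.00195), and had 0.20 ± 0.0868 at E11.5 (adjusted p = 0.108) and -0.07 ± 0.0969 at E14.5 (adjusted p = 0.694). H1f0 was at log2 -0.21 at E16.5 (adjusted p = 0.0335), and H2az1, H2aj, H3f3a and H2ax missed the threshold at all 3 stages.

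**Figure D4:**
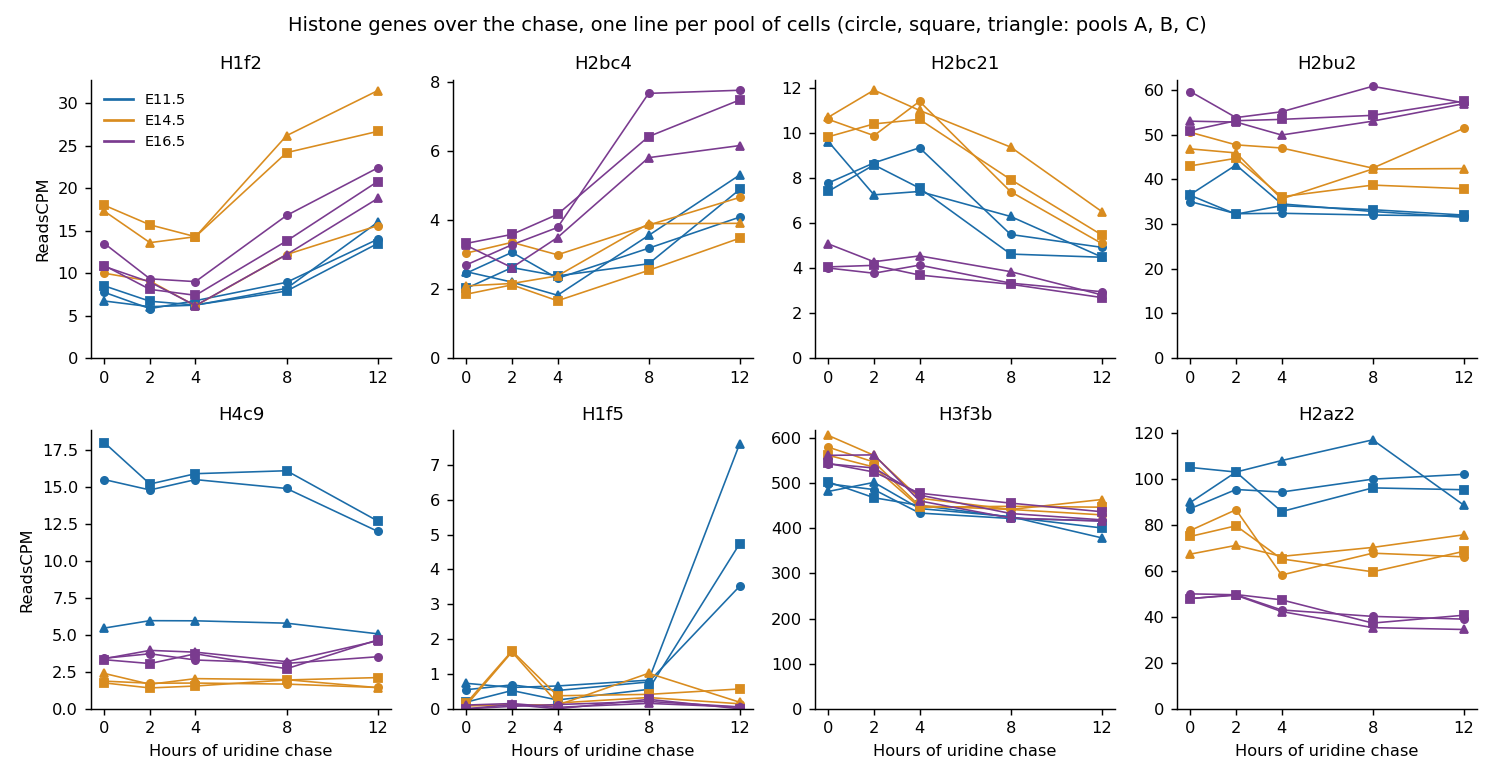
Cpm over the hours of chase for 8 histone genes, 1 line per pool (colour for stage; circle, square and triangle for pools A, B and C), each on its own axis from 0. H1f2 and H2bc4 end above and H2bc21 and H3f3b below their 0 h values in every pool, and H1f5 leaves its baseline in the 12 h libraries of E11.5 and, less, in 2 h libraries A and B and 8 h library C of E14.5.

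Whether these changes differed between stages was tested as an interaction in a fit of all 45 libraries, in which 22 of the 100 genes passed the filter. At any fold, 6 of the 22 had a 12 h change that differed between E16.5 and E11.5 (8.90% of 16559 genes did), 4 between E14.5 and E11.5 (6.07%) and 0 between E16.5 and E14.5 (0.906%; 0 of the 22 at an unadjusted p under 0.05). Of the 6, the clustered genes H4c8 (log2 -4.20 ± 0.878, edgeR, adjusted p = 0.00151), H4c14 (-3.22, adjusted p = 0.00279) and H1f3 (-2.79, adjusted p = 0.00796) were among those called higher at E11.5, in the 3 libraries that stood apart. With 8 h in place of 12 h, their values were 0.28, -0.23 and 0.13, and the only member called was H2az2 (-0.49), whose 12 h value was -0.54 (adjusted p = 0.00474). For H1f2, H2bc4 and H2bc21 no difference between stages was detected, with interaction values between -0.42 and 0.43 and adjusted p between 0.476 and 0.987. With standard errors of 0.188 to 0.391 a moderate difference would not be seen.

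Half-lives were fitted from the decline of the conversion rate where covered Ts exceeded 500 at all 5 times, with R2 over 0.6 and a half-life under 24 h. Each E11.5 fit uses a 12 h library that stood apart. Each E14.5 fit uses such a library too, at 2 h in A and B and at 8 h in C, and no E16.5 fit does. The part of these libraries in the half-lives was not tested. Most clustered genes were too sparse: 5, 4 and 5 of the 59 passed the coverage limit in order of stage, and 3, 3 and 5 gave a half-life in all 3 replicates. All 6 variants passed the coverage limit at each stage, and 5, 3 and 6 gave a half-life. The comparison of the 2 classes therefore sets the variants against a few clustered genes whose transcripts are annotated past the stem-loop or have none. Their medians were 5.70, 6.39 and 4.31 h for the clustered genes and 6.33, 5.22 and 6.08 h for the variants, against 4.43, 4.60 and 3.48 h over 10858, 10686 and 11850 genes. These medians are over different genes at each stage, so they cannot be compared between stages. At E14.5 the variants H3f3a, H2az2 and H2aj were measured in only 2 replicates, which left H1f0, H3f3b and H2az1. The half-lives of individual members overlapped between the classes at each stage.

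H1f0 had the shortest half-life among members measured everywhere, at 3.63 ± 0.373, 3.80 ± 0.106 and 3.42 ± 0.219 h in order of stage (SD, n = 3). Over all 9 replicates it averaged 3.62 h, at the 34.9th percentile of 9505 genes. H2bc21 followed at 4.20 h (52.6), then H2ax at 4.22 (53.1), H3f3b at 4.89 (69.7), the pseudogene H2afy3 at 5.76 (83.7), H2bu2 at 6.31 (88.9) and H2az1 at 6.32 h (percentile 89.0). Neighbours in this order from H2bc21 to H2ax, and from H2afy3 to H2az1, did not differ beyond their spread. H2bu2, at 6.58 ± 1.39, 6.39 ± 1.25 and 5.96 ± 1.20 h, and H2bc21, at 4.53 ± 0.912, 4.21 ± 0.409 and 3.87 ± 0.760 h, are both clustered H2B genes, and the mean of H2bu2 was longer at each stage, with an overlap of replicates at E11.5. H2az1 measured 6.33 ± 0.903, 6.27 ± 0.482 and 6.37 ± 2.36 h.

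The longest half-lives were those of H3f3a and H2az2. H3f3a gave 12.0, 13.5 and 8.71 h at E11.5, 11.6 and 9.57 h in the 2 measured replicates of E14.5, and 8.35, 9.38 and 9.66 h in those of E16.5. H3f3b, which encodes the same protein, gave 4.83 ± 0.429, 5.22 ± 0.454 and 4.63 ± 0.120 h, below every value of H3f3a. H2az2 gave 10.2, 12.7 and 8.35 h, then 7.90 and 10.8 h, then 7.05, 7.86 and 7.21 h. Among clustered genes, H4c9 measured 5.70 ± 0.409 h in E11.5 cells and 4.60 ± 1.35 h in E16.5 cells. H1f2 measured 6.40 ± 1.37 h in E14.5 cells and 4.31 ± 0.914 h in E16.5 cells, and H2bc4 3.53 ± 1.00 h in the latter. Where only 2 replicates were measured, H4c9 gave 3.98 and 3.33 h at E14.5 and H1f2 gave 2.85 and 3.07 h at E11.5. H2bc4 gave 8.09 and 2.06 h at E11.5 and 9.65 and 2.09 h at E14.5, so its replicates differed widely. The conversion rate is a share of all RNA of a gene, so where the level rose over the chase, as for H1f2 and H2bc4, added unlabelled RNA lowers the rate as well as decay does, and these were not separated.

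**Figure D5:**
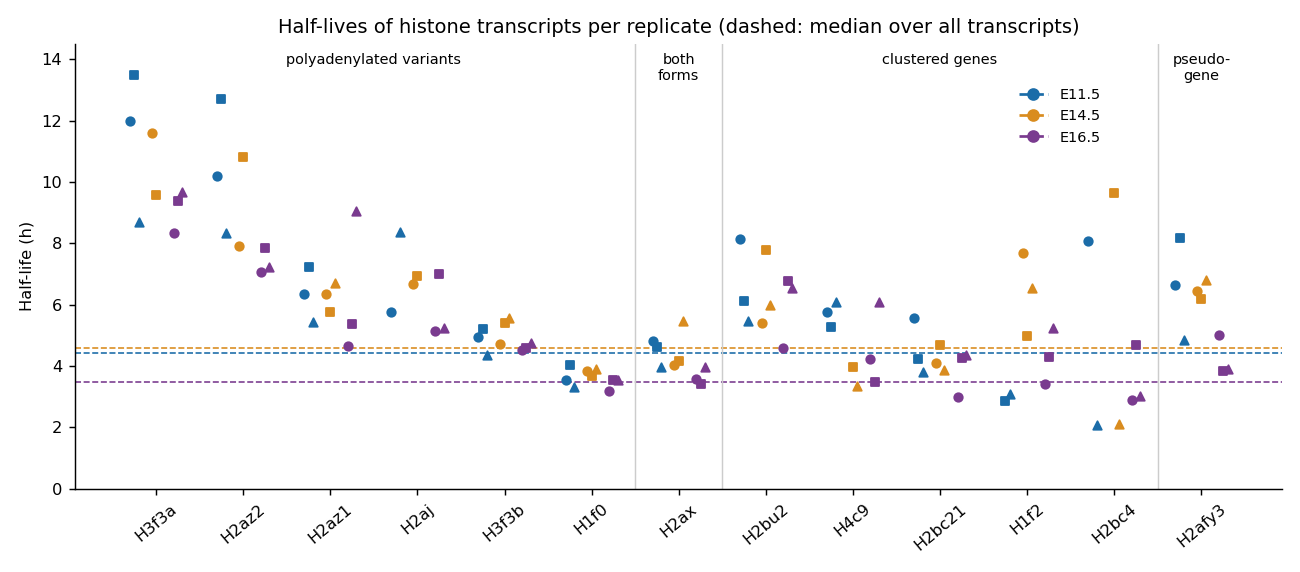
Half-life in hours of each histone transcript in each replicate (points; colour for stage, circle, square and triangle for pools A, B and C), with the median over all transcripts of each stage as a dashed line. H3f3a and H2az2 reach up to 13.5 and 12.7 h, and H1f0 stays between 3.17 and 4.04 h.

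Relative half-lives of histone transcripts did not change detectably between stages. The half-lives were set to z-scores within each replicate and tested with a limma F test over 9505 genes. Of the 7 members measured in all 9 replicates 0 were called, and 2 had an unadjusted p under 0.05, H3f3b (0.00617, limma adjusted p = 0.0885) and H1f0 (0.0103, limma adjusted p = 0.113). Over all genes 3.15% were called.

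Label content at 0 h is the share of covered Ts converted after 20 h of 4sU. Relative to other genes it differed between stages for 4 of 13 tested members, where 17.3% of 12522 genes were called. The limma F test used log2 values centred on the median of each library and has no direction. In all 4 the centred mean was lowest at E16.5, though that of H2az1 (0.04) was not below the library medians there. The library medians were 1.02 to 1.45% at E11.5, 1.04 to 1.21% at E14.5 and 1.78 to 1.88% at E16.5. Relative to these, H2az2 stood at log2 -0.12, -0.04 and -0.61 in order of stage (adjusted p = 0.0128), H2ax at -0.04, 0.02 and -0.51 (0.00116), H1f0 at 0.00, 0.03 and -0.26 (0.0113) and H2az1 at 0.52, 0.61 and 0.04 (0.0213). Without E16.5 0 h B, 1 of the 4 calls was left.

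The 54 low genes carried label too, and were pooled because single genes were too sparse. At E11.5 they had 1.30% of covered Ts converted at 0 h (exact 95% binomial interval 1.08 to 1.56, counting error only) and 0.802, 0.621, 0.457 and 0.272% at 2, 4, 8 and 12 h. The E11.5 12 h value comes only from the 3 libraries that stood apart. There the 54 genes covered 90397 Ts against 8750 at 8 h, and summed to 78.1 against 11.3 cpm. Loss of label and added RNA cannot be told apart in this 12 h share. For the variants the share went from 1.17% to 0.245% and for the 5 highest genes from 1.13% to 0.219% over the same 12 h. At E16.5 the 54 genes went from 2.35% to 0.455%, the variants from 1.59% to 0.223%. At E14.5 the 54 genes kept more, from 1.65% to 0.857%, but H1f3, H2bc8 and H4c4 held 36 of the 64 converted Ts at 12 h and 47 of 93 at 8 h. Without these 3 genes the E14.5 share went from 1.17% to 0.462% (interval 0.307 to 0.667), against 1.09% to 0.228% for the variants. At E16.5 12 h the same 3 genes held 18 of only 27 converted Ts. Without them the E16.5 share went from 1.85% to 0.213% (interval 0.0974 to 0.404, on 9 converted Ts), against 0.223% for the variants. Leaving out genes that hold so many of the converted Ts lowers the 12 h share in itself. The shares without these 3 genes are therefore a description and do not test whether the other low genes lose label as the variants do.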

How the data were processed

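Poly(A) RNA of 45 libraries was sequenced after alkylation. Per the labels and methods, the authors aligned reads to mm10 with SlamDunk and added up the exons of each GENCODE gene; the treatment of reads with several alignments and of strand is not given in the sources used here. The authors deposited covered Ts (raw counts, in which a read adds each T it covers), conversion rates (the fraction of covered Ts that were converted) and CPM (reads per 1e6 reads). In all libraries 100% of CPM values were whole reads to within 0.01 reads, and these reads were recovered for an alternative test. Columns with the authors' own half-lives and fits were not used.

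Counts of covered Ts were tested with edgeR 4.0.16 (TMM, quasi-likelihood) in R 4.3.3, with genes over 10 covered Ts in all libraries of the fit, about 1 read. Stage fits used 9 libraries, chase fits 15, the interaction 45. Alternatives used DESeq2 1.42.0. Conversion rates and half-lives were tested with limma 3.58.1. Half-lives were ln(2)/k of exp(-kx) fitted by least squares to rates over the 0 h rate (numpy 2.4.6). Scripts were tested on simulated data. Adjusted p-values in the text come from these fits unless said otherwise. Stem-loops, exon lengths and overlaps were read from GRCm38 with GENCODE release 21 and promoters from RefSeq.

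Within a stage a letter marks a pool, as the methods state, and deviations of 0 h and 12 h libraries of a pool correlated at 0.09 to 0.61 over 11355 genes. Between stages letters mark different embryos. Members and lists were chosen with earlier results of these data known. The genes named were the variants and H2ax, the 10 clustered genes highest per kb, the clustered genes with the largest changes at 0 h without overlap, the 2 largest rises and falls over each chase, and the 3 shortest and longest half-lives; others were named after their values were seen. The variant macroH2A genes, Macroh2a1 and Macroh2a2, do not match the rule. Precision is set by depth (15.9 to 43.9 x 1e6 reads) and by 3 replicates.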

Additional observations from a re-analysis of the deposited data

Results flagged for a closer look

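A change over the 12 h of chase that differed between stages, by the interaction term of the 45-library fit, was found for 10 pairs of gene and stages. Against E11.5, the change at E16.5 was lower by a log2 difference of -4.20 for H4c8, -3.22 for H4c14, -2.79 for H1f3, -1.70 for Hist1h2al, -0.54 for H2az2 and -0.22 for H3f3b. At E14.5 it was lower by -3.50 for H1f3, -3.06 for H4c8, -2.78 for H4c14 and -0.29 for H3f3b. H1f3 measured 0.665, 0.144 and 0.692 cpm at E11.5 0 h and 5.24, 5.57 and 8.71 at 12 h, and H4c14 0.391, 0.289 and 0.192 and then 1.51, 1.98 and 2.96. At E16.5, H1f3 went from 0.647, 0.711 and 0.507 to 1.25, 1.01 and 0.871 cpm. The 3 E11.5 12 h libraries are those with 29686 to 67623 cpm of Gm42418, and their part in these differences cannot be told apart from the time point. The call of Hist1h2al was lost in 8 of the 12 fits that left out a library.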

How the results depend on the processing

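Of 223 recomputed summaries 174 stayed within the limits for no change and 49 moved. Of 376 values of single genes, 317 kept direction and call, 52 kept direction only and 7 turned. With 12 h libraries in place of 0 h, 26 members were tested. Of these, 10 were called at E14.5 against E11.5 (3 at 0 h), 1 at E16.5 against E14.5 (5) and 14 at E16.5 against E11.5 (8). Over all 17615 genes tested, 2701, 2105 and 4881 were called. Of the 10 and the 14 members, 9 and 13 were lower at the later stage, and the E11.5 side is the 3 libraries that stood apart. Recovered whole reads, with over 10 reads in all libraries, left 3 calls in each of the last 2 comparisons, 3 of 14 tested in the E11.5 chase (25) and 1 in that of E16.5 (3). The filter in at least 3 libraries, and no filter, each gave 3 for E16.5 against E14.5. Leaving out a library gave 5 to 10 for E16.5 against E11.5 (5 without E16.5 0 h B), 0 to 1 for the E14.5 chase (1 without 0 h A, and 1 without 12 h C) and 1 to 2 for that of E16.5 (1 without 12 h A). With the letter as a replicate block the counts were 2, 5 and 7 between stages and 27, 0 and 3 over the chase, and the pairing by pool gave 9 in place of 6 for the interaction of E16.5 and E11.5. These interaction alternatives, the 8 h libraries and leaving out high-Gm42418 libraries were chosen after seeing the data. With 8 h in place of 12 h, 2 members were called in the E11.5 chase, where H2bc12 (-0.16), H4c12 (-0.70), H4c4 (-0.38) and H4c8 (-0.17) turned, and 1 in the interaction, where H1f3 (0.13), H4c8 (0.28) and Hist1h2al (0.01) turned. Without the 3 high libraries the E14.5 chase still had 0 calls of 33 tested. The cause of these differences was not tested.

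With R2 over 0.8, 1 member differed in relative half-life between stages (0). Without centring, 7 differed in label content (4). Half-lives fitted from 2 to 12 h gave medians of 4.20 and 3.65 h for clustered genes at E11.5 and E14.5, with 5 measured at E11.5 and 3 at E16.5, and of 4.86, 4.01 and 4.26 h for variants in order of stage. Covered Ts over 2000 gave 6.14 h at E11.5 and 2 genes at E16.5 for clustered genes, and R2 over 0.8 gave 5.30 h at E14.5. Leaving out a replicate gave 4.84 to 5.52 h at E11.5, 5.69 to 6.32 h at E14.5 for clustered genes and 5.13 to 6.42 h for E14.5 variants. The 0 h sums of the clustered genes were 73.9, 75.7 and 71.8 per 1e6 as a share of covered Ts, 43.3, 36.3 and 27.3 cpm without H2bu2, and 144, 86.4 and 97.1 cpm in 12 h libraries. Those of the variants were 1371, 1322 and 1133 as a share of covered Ts and 1062, 955 and 789 cpm at 12 h.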
